A study of Rattus norvegicus with 3 samples.

Results

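The Id, Hes and Hey genes encode helix-loop-helix repressors of transcription. Members were taken by gene symbol: Id1, Id2, Id3, Id4, Hes1, Hes5, Hes6 and Hey1. All 8 of 8 were found, each as 1 entry, among 16629 genes and unnamed regions. RNA came from adult Sprague-Dawley rats housed in light and dark phases of 14:10 h. The pineal night library was sampled at zeitgeber time 19 (hours after lights on, midnight) and the pineal day library at zeitgeber time 7 (mid-day). The third library, also from zeitgeber time 7, was an equal mix of RNA from 15 other tissues, namely brain regions (cerebellum, cortex, hindbrain, hypothalamus and midbrain) with spinal cord, retina, pituitary and adrenal gland, and the peripheral organs liver, heart, kidney, lung, small intestine and skeletal muscle. The sources used here do not give how many glands a library pooled. Each group had 1 library, so no difference below has a replicate check and none carries a p-value.

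Basic helix-loop-helix activators bind DNA as dimers with ubiquitous partners called E proteins. Id proteins have the helix-loop-helix that forms dimers but lack the basic region that touches DNA, so they hold E proteins in complexes that cannot bind, and they are classical targets of bone morphogenetic protein (BMP) signalling. Hes and Hey proteins do bind DNA and are the best known effectors of Notch receptors, and Hes proteins recruit Groucho corepressors. In the developing nervous system both families delay differentiation, and in the adult they are also expressed in glial and vascular cells.

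Levels are FPKM (fragment counts divided by transcript length in kilobases and by library size), so they can be set side by side between genes. Differences are log2 ratios of FPKM + 1, a scale that understates the change of low genes, or ratios of FPKM where so stated. Comparisons took in genes at FPKM 1 or more in either library. Depth was estimated from the smallest steps in the values, at 60.5% (night) and 111% (mixed tissues) of that of the day library. From it come 95% Poisson bounds for 1 kb of transcript (0.768 kb for Hes5, its whole span), which cover counting error alone. The median log2 ratio of all genes compared was -0.11 for night against day, -0.27 for day against the mixed tissues and -0.36 for night against the mixed tissues, and member ratios are to be read against these shifts. The 12 pinealocyte markers summed to 10003 FPKM by night, 8989 FPKM by day and 84.9 FPKM in the mixed tissues, and 12 of 12 exceeded the mixed tissues at least 4-fold in both gland libraries. Past 2-fold between the gland libraries were Aanat (762 FPKM by night and 5.34 by day), Bsx (493 and 60.6) and, on the day side, Isl2 (37.2 and 101). Night over day ratios lay below 0 for 6 of the 12 markers, so the larger night sum was not a rise shared by all of them. The mixed library was sampled by day, so the night gland differed from it in hour as well as in tissue. This holds for every night comparison with the mixed tissues below. In bulk RNA, fewer cells of a type and less RNA per cell cannot be told apart.

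Id1 was the member that differed between night and day. The gene lies at chr3:143086162-143087289 (rn4, as all member positions below). It stood at 40.5 FPKM in the night gland (bounds 35.2 to 46.2), 16.4 FPKM in the day gland (13.8 to 19.3) and 24.8 FPKM in the mixed tissues (21.7 to 28.1). The night bounds lie above those of both other libraries, and the day bounds lie below them. The night over day ratio of FPKM was 2.47 (counting bounds 1.99 to 3.08), or a log2 ratio of 1.26, and 284 of the 9826 genes and regions compared had a larger one. Against the mixed tissues, Id1 was 1.63-fold higher by night (bounds 1.35 to 1.97) and 1.51-fold lower by day (bounds 1.23 to 1.88). Both gland values are set against the same mixed library, sampled by day. The night comparison thus differs in hour as well as in tissue.

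Of the 8 members, 7 reached the level for comparison between night and day. Among these, 1 was at least 2-fold apart, Id1, on the higher side. Over all genes compared, 6.29% were at least 2-fold apart, 4.18% higher and 2.11% lower by night. At 4-fold, 0 of 7 were apart, against 1.37% of all genes. With 7 members compared, 1 past 2-fold is a small count, and it is read here as a value of Id1 and not of the group. The median log2 ratio of the 7 was 0.10, and the other members ranged between -0.23 and 0.15.

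**Figure D1:**
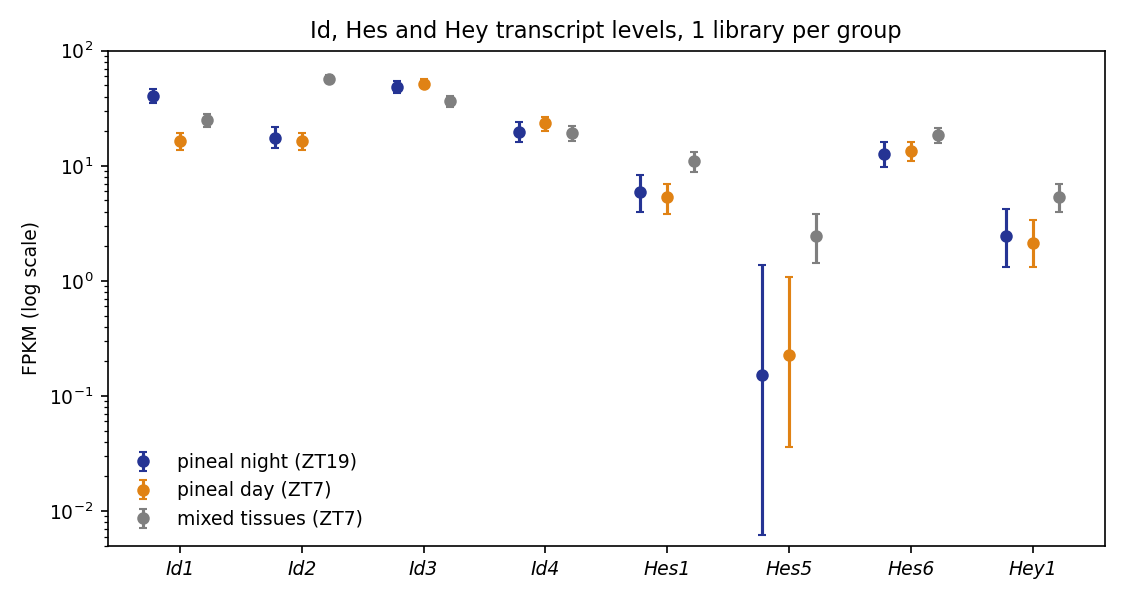
FPKM of each member (log axis) in the pineal night, pineal day and mixed tissue libraries, 1 point per library, with bars for 95% Poisson counting bounds. Id1 is at 40.5 FPKM by night, 16.4 by day and 24.8 in the mixed tissues, while the night and day points of the other members lie within each other's bounds or close to them.

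The promoter of Id1 is shown because Id1 is the member past 2-fold. The window runs from 250 bases before to 50 after the gene's start in the RefSeq table (GRCr8, chr3:161671314-161671613, plus strand, 5′ to 3′). Capitals mark TATAAA, the letters of a TATA box, at bases 192 to 197 of the window (first base at -59 from the gene's start).
Id1: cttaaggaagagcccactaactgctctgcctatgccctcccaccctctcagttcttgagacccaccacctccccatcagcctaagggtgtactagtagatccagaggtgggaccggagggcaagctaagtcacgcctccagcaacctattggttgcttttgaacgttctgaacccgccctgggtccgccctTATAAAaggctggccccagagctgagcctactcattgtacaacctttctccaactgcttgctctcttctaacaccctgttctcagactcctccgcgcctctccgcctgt
TATAAA occurred on either strand in 14.2% of the 33469 rat promoter windows of this length, and among the 7 members with a window in Id1 and Hes6. The palindrome TGACGTCA, the full cAMP response element, occurred in 1.83% of all windows and in 0 of the 7, and its shorter form TGACG in 21.2% and in 0 of the 7. The E-box CANNTG, the site of basic helix-loop-helix dimers, occurred in 72.1% of all windows and in 4 of the 7 (Id1, Id2, Hes5 and Hes6). The TGACG search covers TGACGTCA as well. Matches describe letters, not bound sites, and 300 bases leave out distal elements.

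Id3 (chr5:154934138-154935707) was the most abundant member in both gland libraries. It was at 48.7 FPKM by night (bounds 43.0 to 55.1), 51.8 FPKM by day (47.1 to 56.8) and 36.3 FPKM in the mixed tissues (32.6 to 40.2). The gland libraries overlap each other and both lie above the mixed tissues, by 1.34-fold at night (bounds 1.14 to 1.58) and 1.43-fold by day (1.24 to 1.65). By day it ranked above 95.5% of all genes and regions listed.

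Id2 (chr6:42781476-42783307) showed the opposite arrangement. It was at 17.6 FPKM by night (bounds 14.2 to 21.5), 16.3 FPKM by day (13.8 to 19.3) and 56.8 FPKM in the mixed tissues (52.2 to 61.7). The gland libraries overlap, and both lie far below the mixed tissues, where Id2 was the highest of the 8 members. It was 3.22-fold lower by night (bounds 2.59 to 4.07, log2 ratio -1.63) and 3.47-fold lower by day (bounds 2.89 to 4.20, log2 ratio -1.74).

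Id4 (chr17:22525292-22527861), an Id protein best known from neural and astrocyte precursors, was nearly level. It was at 19.7 FPKM by night (bounds 16.1 to 23.8), 23.3 FPKM by day (20.2 to 26.8) and 19.2 FPKM in the mixed tissues (16.6 to 22.2). The bounds of the 3 libraries overlap, and its highest value was 1.21 times its lowest, the narrowest range among the members.

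Summed, the 4 Id genes reached 126 FPKM by night, 108 FPKM by day and 137 FPKM in the mixed tissues. Their makeup differed more than their sum. Id1 held 32.0% of the summed Id FPKM by night and 15.2% by day, against 18.1% in the mixed tissues. Id3 held 38.5% by night and 48.1% by day, against 26.5% in the mixed tissues, and Id2 held 13.9% and 15.2%, against 41.4%. Without Id1 the sum was 86.0 FPKM by night and 91.5 FPKM by day, so the higher night sum came from Id1. The ratio of Id3 to Id1 was 1.2 by night and 3.17 by day.

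**Figure D2:**
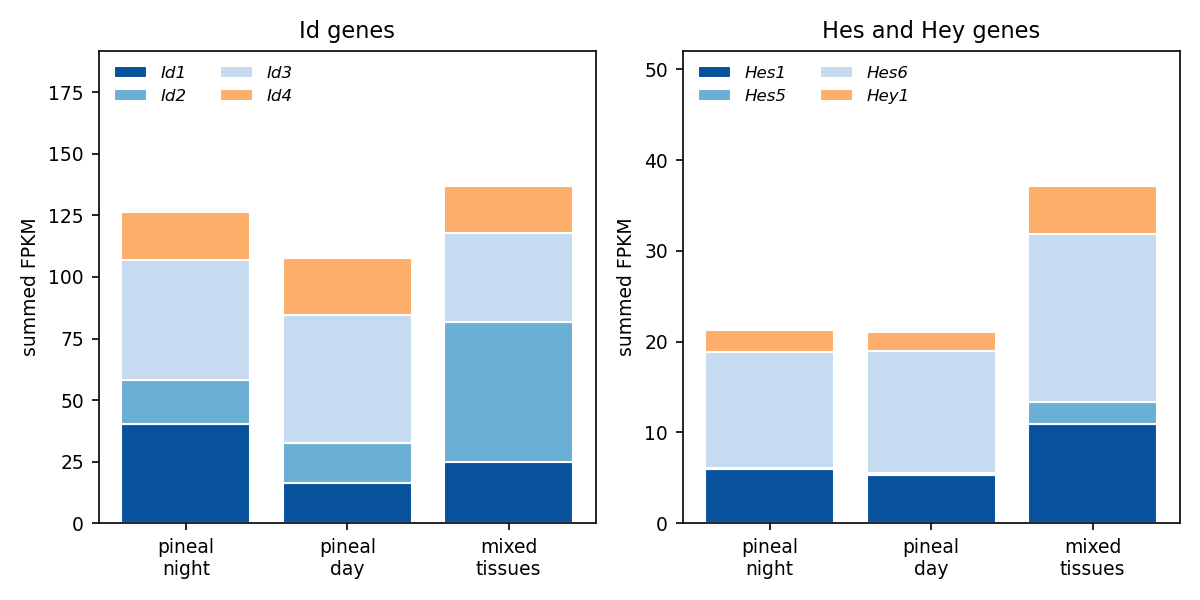
Summed FPKM (linear axis from 0) of the Id genes, left, and of the Hes and Hey genes, right, in the pineal night, pineal day and mixed tissue libraries, divided by gene. The Id1 segment is 40.5 FPKM in the night library and 16.4 in the day library. The Id2 segment is 56.8 FPKM in the mixed tissues.

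Hes6 (chr9:90639890-90641596), an atypical member that antagonises Hes1 and favours neuronal differentiation, was the most abundant of the 4 Hes and Hey genes in every library. It was at 12.7 FPKM by night (bounds 9.81 to 16.1), 13.4 FPKM by day (11.1 to 16.0) and 18.4 FPKM in the mixed tissues (15.8 to 21.3). The gland libraries overlap almost fully, and the mixed tissues stood somewhat higher, with Hes6 1.45-fold lower by night (bounds 1.09 to 1.95) and 1.37-fold lower by day (1.08 to 1.75). Its log2 ratios, -0.50 by night and -0.43 by day, lay near the medians of all genes compared (-0.36 and -0.27). Centred on those medians they were -0.14 and -0.16. Hes6 alone made up 59.8% of the summed Hes and Hey FPKM by night and 63.7% by day, against 49.6% in the mixed tissues.

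Hes1 (chr11:72603482-72605673), a widely used Notch effector, was at 5.94 FPKM by night (bounds 3.98 to 8.32), 5.31 FPKM by day (3.85 to 7.02) and 10.9 FPKM in the mixed tissues (8.91 to 13.2). Its gland libraries overlap and lie below the mixed tissues, 1.84-fold lower by night (bounds 1.24 to 2.87) and 2.06-fold lower by day (1.45 to 2.99). On the log2 ratio of FPKM + 1 these are -0.78 and -0.92, short of 2-fold, though the day ratio passed it with a pseudocount of 0.1 (-1.03). Hey1 (chr2:95174030-95176430), a Notch target of blood vessels and heart, was at 2.46 FPKM by night (bounds 1.31 to 4.20), 2.12 FPKM by day (1.31 to 3.39) and 5.37 FPKM in the mixed tissues (3.99 to 7.00). By day it was just past 2-fold lower (log2 ratio -1.03) and by night just short of it (log2 ratio -0.88, or -1.10 and past it with a pseudocount of 0.1). The call by day was lost with ratios centred on the median (-0.76), with FPKM rescaled without the 20 highest genes of each library (-0.87) and with a pseudocount of 5 (-0.54). The night and day values of Hey1 lie within each other's counting bounds.

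Hes5 (chr5:171763869-171764636), the Notch effector of neural progenitors and some astrocytes, was close to the limit of detection in the gland. It was at 0.153 FPKM by night (bounds 0.0062 to 1.37), 0.225 FPKM by day (0.036 to 1.08) and 2.47 FPKM in the mixed tissues (1.43 to 3.80). The gland values amount to an estimated 1 fragment by night and 2 fragments by day, below the floor of 3 fragments. Being below FPKM 1 in both gland libraries, Hes5 was left out of the comparison between night and day. Against the mixed tissues it was 16.1-fold lower by night (counting bounds 1.54 to 408) and 11.0-fold lower by day (1.94 to 71.8). The direction is clear of counting error and the size is not known within an order of magnitude.

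The promoters of Hes1 and Hes5 are shown because they are the members with TGGGAA, the core letters bound by Rbpj, the DNA-binding partner of cleaved Notch. Hes1 and Hes5 differ in level in the gland and also in the mixed tissues (10.9 and 2.47 FPKM). Both windows run as above (GRCr8, chr11:84212996-84213295, minus strand, and chr5:170804327-170804626, plus strand). Capitals mark TGGGAA or its reverse complement.
Hes1: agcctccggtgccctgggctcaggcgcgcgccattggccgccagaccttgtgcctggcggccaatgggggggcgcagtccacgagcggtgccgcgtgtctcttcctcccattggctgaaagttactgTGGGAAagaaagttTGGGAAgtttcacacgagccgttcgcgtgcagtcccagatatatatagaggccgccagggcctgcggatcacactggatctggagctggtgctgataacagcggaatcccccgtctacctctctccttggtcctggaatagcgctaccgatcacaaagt
Hes5: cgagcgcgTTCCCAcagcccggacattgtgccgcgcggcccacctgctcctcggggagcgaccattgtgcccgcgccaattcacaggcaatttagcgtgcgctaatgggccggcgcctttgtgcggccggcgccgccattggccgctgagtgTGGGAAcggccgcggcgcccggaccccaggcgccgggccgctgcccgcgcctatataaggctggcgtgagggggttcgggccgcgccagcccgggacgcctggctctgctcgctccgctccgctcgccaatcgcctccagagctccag
Hes1 held TGGGAA at bases 128 and 142 of its window, on the same strand. Hes5 held it at base 153, and in reverse at base 9. It occurred in 25.7% of all windows and in 2 of the 7 members with one. CACNAG, the N-box at which Hes proteins bind, was found 4 times in the Hes1 window and in 3 of the 7 members (Id2, Hes1 and Hes6), against 43.1% of all windows. The GC-rich sequence GGCGCC, a site type of BMP-activated Smads, was found 4 times in the Hes5 window and in 2 of the 7 members (Id4 and Hes5), against 11.0% of all windows. The Hes5 window was 72.7% G and C, against a median of 51.7% over all windows.

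Against the mixed tissues by day, 0 of the 8 members were at least 4-fold apart, while 15.5% of the 11934 genes and regions compared were. At 2-fold, 3 members were lower (Id2, Hes5 and Hey1) and 0 higher, or 37.5% of the 8, while 37.2% of all genes were at least 2-fold apart and 28.9% lower. By night 0 of 8 were at least 4-fold apart, against 17.5% of the 11951 compared, and at 2-fold 2 were lower (Id2 and Hes5) and 0 higher, against 40.1% of all genes apart and 31.2% lower. At either fold and hour the share of members apart was near or below that of all genes. The 4 Hes and Hey genes all had ratios below 0, with medians of -0.83 by night and -0.97 by day, and summed to 21.3 FPKM by night and 21.1 FPKM by day, against 37.2 FPKM in the mixed tissues. Of all 2-fold calls, 22.4% by night and 22.4% by day were on the higher side, or 37.5% and 34.1% with ratios centred on the median, so lower values in the gland are common. At 4-fold by night the higher side held 17.6%, or 29.9% when centred. The pool averages its tissues, so which of them carried a member cannot be told.

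**Figure D3:**
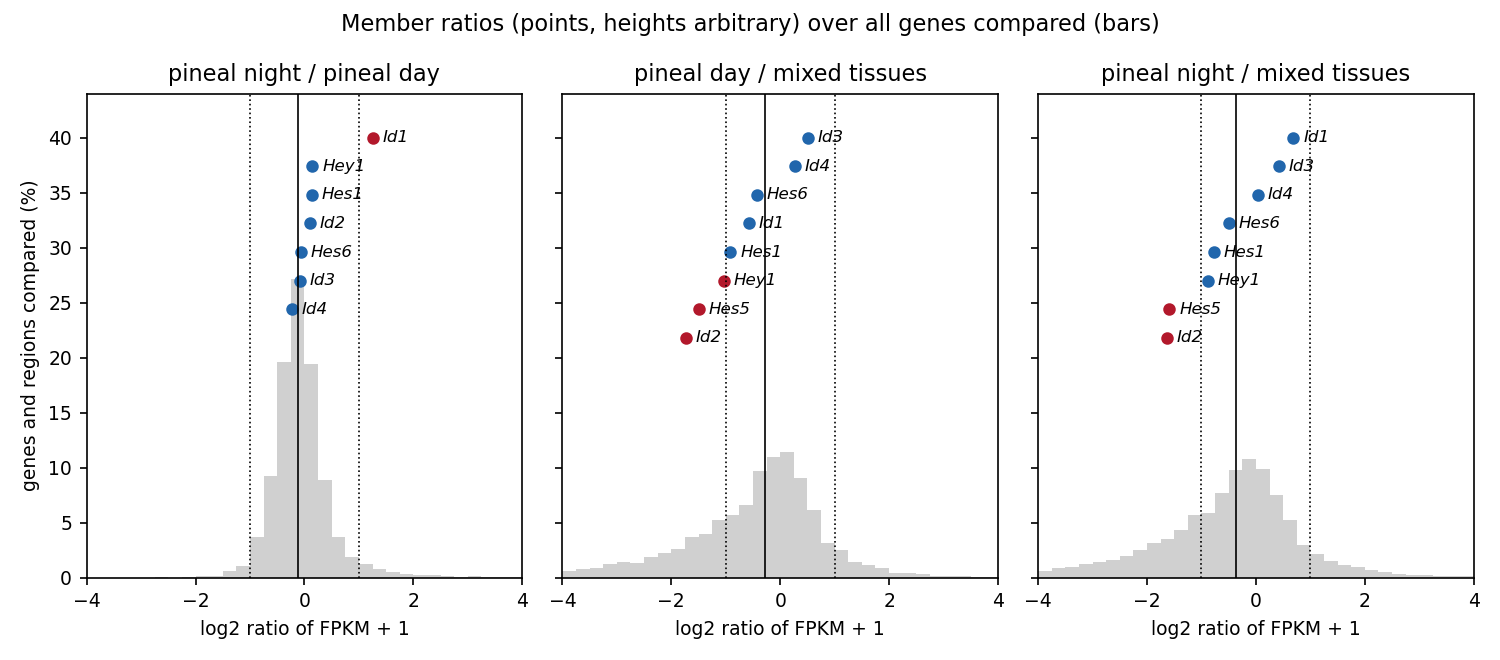
Log2 ratios of FPKM + 1 of the members (points, red where at least 2-fold apart, at arbitrary heights) above the distribution of all genes and regions compared (bars, percent per 0.25 log2 units), with a solid line at the median and dotted lines at 2-fold. Id1 is past the dotted line for night over day (1.26). Id2 (-1.63 by night and -1.74 by day) and Hes5 are past it below the mixed tissues in both gland libraries, and Hey1 (-1.03) in the day library.

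In the order of levels, the night gland ran Id3, Id1, Id4, Id2, Hes6, Hes1, Hey1 and Hes5. Counting bounds of neighbours in this order overlapped between Id3 and Id1, along Id4, Id2 and Hes6, and along Hes1, Hey1 and Hes5. Those of Hes1 and Hes5 did not overlap each other. The day gland ran Id3, Id4, Id1, Id2, Hes6, Hes1, Hey1 and Hes5, with overlap along Id1, Id2 and Hes6. The mixed tissues ran Id2, Id3, Id1, Id4, Hes6, Hes1, Hey1 and Hes5. There Id4 overlapped both Id1 and Hes6, while Id1 and Hes6 did not overlap each other. The 4 Hes and Hey genes kept 1 order in all 3 libraries, and the changes of place were among the Id genes.

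Among the 3 genes nearest to Id1 in their values over the 3 libraries, by Euclidean distance on log2(FPKM + 1) among 8957 genes that reached FPKM 5 in some library, were Slc12a2, a sodium, potassium and chloride cotransporter (distance 0.29), and Pnrc1, a nuclear receptor coregulator (0.41). Slc12a2 had 48.5 FPKM by night, 16.7 by day and 27.4 in the mixed tissues. The nearest to Id2 were S100a16 (0.18), Sv2a (0.19) and Gnao1 (0.19). For Id3, Id4, Hes1, Hes6 and Hey1 the nearest genes, Ola1, Vps52, Tmem120a, Ube2g2 and Gemin6, lay between 0.036 and 0.065 away, so their patterns were matched more closely than that of Id1. With 3 libraries, such likeness is a description only.

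Of the 3 E proteins, the partners that Id proteins bind, 0 were at least 2-fold apart between night and day, beside 6.29% of all genes. Their median was -0.11, that of all genes also -0.11. Tcf12 had 19.95 FPKM in the night gland and 21.7 in the day gland, Tcf4 10.3 and 9.68, and Tcf3 3.14 and 4.41. Summed, they reached 33.4 FPKM by night and 35.7 by day, against 33.7 in the mixed tissues. Tcf12 was the E protein past 2-fold against the mixed tissues by day, where it was at 9.77 FPKM (log2 ratio 1.07).

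A list of proneural, neuronal and related basic helix-loop-helix factors was led by 2 genes in the gland. Neurod4 had 260 FPKM in the night gland and 193 in the day gland, against 6.81 in the mixed tissues, and Neurod1 had 147 and 138, against 29.4. Of 20 listed, 19 were found and 5 could be compared between night and day, with 2 higher and 0 lower (median 0.43), while 4.18% of all genes compared were at least 2-fold higher and 2.11% lower. Against the mixed tissues 4 were at least 2-fold higher and 7 lower of 12 compared by night (median -1.39), and 2 higher and 7 lower of 10 by day (median -1.88), so most of those compared were lower in the gland while the leading genes were higher. Of all genes, 31.2% were at least 2-fold lower than the mixed tissues by night and 28.9% by day. Those at least 2-fold higher numbered 1074 of 11951 by night and 993 of 11934 by day. The list also holds genes best known outside neuronal fate, Bhlha15, Olig1 and Olig2 among them. Its counts are therefore not of neuronal activators alone. Olig1 and Olig2 were among those lower than the mixed tissues (log2 ratios by day -5.26 and -3.08). Neurog1, a proneural factor, had 6.63 FPKM by night and was listed at 0 by day and in the mixed tissues. Bhlha15, known as Mist1 in secretory cells, had 3.32 FPKM in the night gland and 0.0972 in the day gland (log2 ratio 1.98). The day value of Bhlha15 is below the floor of 0.34 FPKM for 1 kb.

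Among other repressors of the Hes and Hey families, 6 of 9 listed were found and 3 compared, with 1 higher by night and 0 lower (median -0.07). Of all genes compared, 4.18% lay past 2-fold on the night side and 2.11% on the day side. Bhlhe40, a repressor that also acts in the circadian clock, had 20.8 FPKM in the night gland and 9.69 in the day gland, a log2 ratio of 1.03, just past 2-fold. Heyl had 4.91 FPKM in the night gland and 6.78 in the day gland, and Hey2 3.34 and 3.57, both near their mixed tissue values of 6.05 and 3.32. Hes7, at 0.112 and 0.174 FPKM, was below the floor in both gland libraries. Groucho corepressors had 5 of 7 found and compared, 0 higher and 1 lower by night (median -0.24), beside the same shares of all genes. Tle1 had 2.92 FPKM in the night gland and 12.3 in the day gland (log2 ratio -1.76), against 5.17 in the mixed tissues. Tle2, Tle3 and Tle4 were at 14.7, 10.5 and 17.8 FPKM by night and 17.6, 15.8 and 18.5 by day, and Aes, a short family member, at 193 and 198.

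Notch receptors and ligands were low in the gland. Of 12 listed, 10 were found and 6 compared between night and day, with a median of -0.33. Of the 6, 0 were at least 2-fold apart, beside 6.29% of all genes. The 4 highest were Notch3 (2.76 FPKM in the night gland and 4.93 in the day gland), Notch2 (3.48 and 4.25), the ligand Jag1 (2.69 and 3.56) and Notch1 (2.27 and 3.16). Against the mixed tissues, 0 of the 9 compared were at least 2-fold higher and 6 lower by night, and 0 higher and 4 lower by day, beside 31.2% and 28.9% of all genes lower. Genes that process Notch or modify it had 22 of 30 found and 20 compared, with 1 higher, 1 lower and a median of -0.10 (6.29% of all genes were apart). The higher one was Neurl, a ubiquitin ligase that acts on Notch ligands (76.1 FPKM in the night gland and 36.2 in the day gland, log2 ratio 1.05), and the lower one Dtx4, a Deltex ubiquitin ligase (3.06 and 7.86, log2 ratio -1.13). The gamma-secretase subunits Psenen (82.1 and 83.7) and Ncstn (27.1 and 28.7) differed little. Dtx3, another Deltex family gene, had 26.4 FPKM in the night gland and 36.1 in the day gland (log2 ratio -0.44).

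BMP ligands and antagonists, the pathway upstream of Id genes, had 24 of 28 found and 11 compared between night and day, with 2 higher, 0 lower and a median of 0.19, beside 4.18% higher and 2.11% lower among all genes. Gdf7, a BMP family ligand, had 43.2 FPKM in the night gland and 10.2 in the day gland (log2 ratio 1.97), and was listed at 0 in the mixed tissues. Fst, which encodes follistatin, an antagonist of activins and some BMPs, had 2.74 FPKM in the night gland and 0.571 in the day gland (log2 ratio 1.25). Twsg1, an extracellular BMP modulator, fell just short of 2-fold, at 44.7 and 22.8 FPKM (log2 ratio 0.94). Bmp6 was at 12.1 and 10.5, and Fstl1 at 66.6 and 74.3. Receptors and Smads had 15 of 18 found and 13 compared (median 0.08), with 0 at least 2-fold apart, beside 6.29% of all genes. Acvr1, a type I receptor of BMPs, had 51.9 FPKM in the night gland and 83.7 in the day gland, against 5.93 in the mixed tissues, the 1 gene of this list with a 4-fold excess over the mixed tissues (log2 ratio 3.61 by day). Bmpr2 was at 24.7 and 22.5 FPKM, and the transducers Smad5 and Smad4 at 15.0 and 12.8 and at 14.4 and 13.5.

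**Figure D4:**
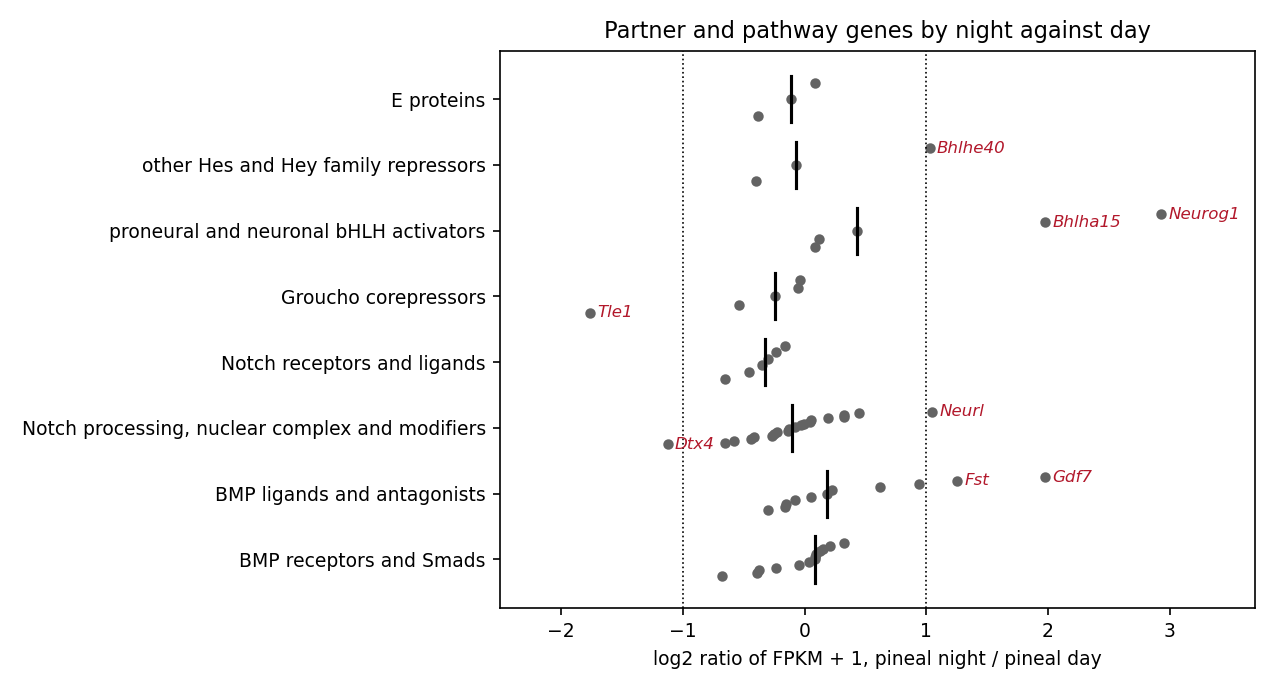
Log2 ratios of FPKM + 1, pineal night over pineal day, of the genes compared in 8 partner and pathway lists (1 point per gene, thick bar at the list median, dotted lines at 2-fold, names for genes at least 2-fold apart). Neurog1, Bhlha15, Gdf7, Fst, Neurl and Bhlhe40 lie on the night side, and Tle1 and Dtx4 on the day side.

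Id and Hes genes are also expressed by glial and vascular cells, so markers of those cells are given beside the results. Astrocyte markers (7 of 9 found) summed to 151 FPKM by night and 202 by day, against 774 in the mixed tissues. Of these, 7 of 7 had night over day ratios below 0, 0 of them past 2-fold. Their median was -0.39, beside a median of all genes compared that also lay below 0 (-0.11). Endothelial markers (8 of 10 found) summed to 31.1 FPKM by night and 36.1 by day, against 135, with Cldn5 listed at 0 in all 3 libraries. Mural cell markers summed to 54.9 and 66.0, against 209 (7 of 8 found), and fibroblast markers to 238 and 313, against 412 (8 of 8 found). These 4 sums were lower by night, as were the oligodendrocyte and Schwann, microglia and rod sums below. The neuron sum below was higher by night. The part of these cells in the Id1 ratio was not tested. Oligodendrocyte and Schwann markers summed to 28.1 FPKM by night and 44.5 by day, against 4809 (9 of 9 found, Mobp at 0 by night), microglia markers to 60.1 and 64.7, against 108 (8 of 8), neuron markers to 174 and 131, against 653 (7 of 8), and rod markers to 328 and 461, against 1811 (7 of 8, Nrl at 0 by night). Single genes carried several sums. Rom1 made up 313 FPKM of the rod sum by night and 442 by day, and was higher than in the mixed tissues (108), while the other 6 rod markers were over 2-fold lower. Syt1 made up 131 and 105 of the neuron sum, against 63.8 in the mixed tissues. Gja1 (61.9 and 81.4, against 70.7) and Slc1a2 (58.4 and 72.6, against 74.2) made up most of the astrocyte sum in the gland, and the other 5 astrocyte markers were over 2-fold lower in both gland libraries. All 8 of these sums were lower in both gland libraries than in the mixed tissues, as were Id2, Hes1, Hes5, Hes6 and Hey1. Of these members, Hes6 lay near the median of all genes compared. The part of these cells in those results was not tested.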

How the data were processed

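Poly(A) RNA was sequenced in 3 libraries, 1 per group: pineal night, pineal day and mixed tissues. The deposited values are FPKM, computed by the authors, per the file headers. TopHat 1.3.1, Cufflinks 1.2.0 and the build rn4 are named in the submitters' processing notes. Not given in the sources used here are their options and the treatment of reads that map to several places. Per the labels' protocols, cDNA was primed at random, amplified by 15 cycles of PCR and sequenced as paired ends on 1 lane per library. Strand is not stated, and no other entry of the tables overlaps a member's span.

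No reads were processed here. The series table and the tables per sample agreed in 51267 of 51267 values. Entries with the same symbol were summed (802 of 17089 entries, none of them a member). Ratios are log2 of FPKM + 1, for genes that reached FPKM 1 in either library, and "apart" means 2-fold between night and day and 4-fold (2-fold where stated) against the mixed tissues. The value of 1 fragment was read from short receptor genes at their lowest values (22 models by day, 4 by night and 23 in the mixed tissues), so night bounds rest on few models. Duplicates from PCR make true errors larger than the bounds. The functions were tested on simulated data. Python 3.11.15, pandas 2.3.3 and scipy 1.17.1 were used.

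The members and lists were chosen with earlier results of these data known. Text names all members and, from each pathway list, the 4 most abundant in the gland and any gene at least 2-fold apart between night and day, and the 3 genes nearest to a member in pattern (the nearest alone for 5 members). Olig1 and Olig2 are named besides. Marker lists are given by their sums and the genes that carry them, named after their values were seen. 1 gene near Id1 in pattern is not reported here. Starts in the tables count from 0 (1190 of 1197 receptor spans are then multiples of 3), and 1 was added. Promoter sequences are those of RefSeq (GRCr8), matched by gene ID and symbol for 7 of 8 members, without Hey1.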

Additional observations from a re-analysis of the deposited data

How the results depend on the processing

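The call of Id1 between night and day held under pseudocounts of 0.1 and 5, without a filter and with one at FPKM 5, with ratios centred on the median, with FPKM rescaled without the 20 highest genes, and with the highest entry per symbol in place of the sum. Its log2 ratio ranged between 1.09 and 1.37. With 4-fold in place of 2-fold, 0 members were apart between night and day. Against the mixed tissues, a pseudocount of 0.1 put 1 member past 4-fold both by night and by day, Hes5 (log2 ratios -3.34 and -2.98), and with 2-fold in place of 4-fold 2 members were apart by night and 3 by day. Hey1 by day and Hes5 in both gland libraries were within 2-fold with a pseudocount of 5, and Hey1 by day also with centred ratios (-0.76) or the rescaled FPKM (-0.87). With a pseudocount of 0.1, Hes1 by day (-1.03) and Hey1 by night (-1.10) passed 2-fold below the mixed tissues. Id1 by night passed 2-fold above the mixed tissues when centred (1.05). Centring turned the sign of the night over day ratios of Id3 (0.02) and Hes6 (0.04). Of 158 member ratios under an alternative, 151 moved by less than the distance between the middle and the ends of their counting bounds, and 7 moved by more. This is a loose standard where bounds are wide. Hes5 by night against the mixed tissues met it while moving from -1.59 to -3.34 with a pseudocount of 0.1. Id1 between night and day was the only ratio called at the main folds, and it kept its sign. No paired analysis was possible because each group had 1 library, and no library could be left out. Depth limits Hes5 in the gland, at 1 and 2 estimated fragments, and the bounds of Hey1 and Hes1.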
